A study of Mus musculus with 4 samples.

Results

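The 8 genes described here encode proteins of the extracellular matrix, enzymes that cut it and an inhibitor of proteases: Spp1, Fn1, Thbs1, Vcan, Tgfbi, Slpi, Mmp12 and Mmp14. They were taken as a list of symbols, chosen with earlier results of these data known. All 8 were among the 21739 genes with a row in at least 1 library. The study sequenced single cells of periwound mouse skin on day 7, from 6-week-old C57/BL6j mice that received subcutaneous injections around the wound every 48 h. The 2 Control mice received phosphate-buffered saline and the 2 hucMSC-Exo mice 100 µg of exosomes from human umbilical cord mesenchymal stem cells per injection, and each mouse gave 1 library. The labels give no other allele or treatment, and group and replicate number were read from the sample titles. The matrices carry letters in their names that put Control 1 with hucMSC-Exo 1 and Control 2 with hucMSC-Exo 2, so any direction given between groups relies on the titles. One label field names gut where the others name skin. Per library, 5 keratinocyte genes summed to 501 to 983 UMIs per 1000000 UMIs and 5 listed intestinal epithelial genes, chosen after the data had been seen, to 0.15 to 2.07.

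Macrophages enter a wound as monocytes, clear debris and then help to build and remodel the provisional matrix on which fibroblasts and epidermis move. Osteopontin (Spp1), fibronectin (Fn1), thrombospondin-1 (Thbs1) and the TGF-beta-induced protein (Tgfbi) are secreted proteins that bind integrins and other adhesion receptors, and versican (Vcan) is a large proteoglycan of loose, early matrix. Secretory leukocyte peptidase inhibitor (Slpi) blocks neutrophil serine proteases, macrophage elastase (Mmp12) cuts elastin and other substrates, and the membrane-anchored Mmp14 cuts collagen and activates other metalloproteinases.

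On GRCm38, the mm10 build to which the reads were aligned, Spp1 lies at chr5:104435118-104441050 on the plus strand and Fn1 at chr1:71585520-71653200 on the minus strand. Thbs1 lies at chr2:118111876-118127133 (plus), Slpi at chr2:164354070-164389095 (minus), Tgfbi at chr13:56609523-56639562 (plus) and Vcan at chr13:89655312-89742509 (minus). Mmp12 lies at chr9:7344381-7369499 (plus) and Mmp14 at chr14:54431612-54445364 (plus). Fn1, Thbs1, Vcan and Mmp12 each overlap an annotated gene on the opposite strand, and Spp1 and Slpi one on their own strand, and the values of these last genes are uncertain where reads fall in the overlap. Promoter sequences of RefSeq (GRCm38.p6) were matched to 6 of the 8 genes, with 8 promoters. The 8 letters GAGGAAGT, which the myeloid factor PU.1 is known to bind, were searched on both strands. They were found in 2 of the 8 promoters, 1 of Spp1 and 1 of Mmp12, and in 3.20% of all 32851 promoters of this length. The other listed promoter of Spp1 and that of Mmp12 had none. The letters of 2 further motifs were searched as well. TATAAA was found in 1 promoter of Spp1 and 1 of Mmp12 (13.6% of all promoters), and the AP-1 letters TGANTCA in 1 of Mmp12 (7.81%). Mmp14, whose promoter had no match, and Fn1, for which no promoter was given, were highest in the osteoclast-like macrophage gate (described below) in all 4 libraries, as was Spp1. Mmp12 was highest there in 3 libraries. Whether a match bears on these levels was not tested. The 150 bases before the start sites of the 2 promoters with GAGGAAGT are shown with that match in capitals. The match begins 113 bases before the Spp1 start (chr5:104434961-104435110, plus strand) and, on the reverse strand, 88 bases before the Mmp12 start (chr9:7344247-7344396, plus strand). A match is a description of the letters and not evidence of binding.
Spp1: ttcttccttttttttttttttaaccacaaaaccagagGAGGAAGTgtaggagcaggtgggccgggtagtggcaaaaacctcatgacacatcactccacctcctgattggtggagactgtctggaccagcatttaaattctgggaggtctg
Mmp12: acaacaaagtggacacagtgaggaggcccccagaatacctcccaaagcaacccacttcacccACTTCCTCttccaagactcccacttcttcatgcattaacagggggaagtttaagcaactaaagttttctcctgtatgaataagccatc

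Values are unique molecular identifiers (UMIs), which count captured RNA molecules. Of 7178 deposited cells 6443 were kept, with 952 to 2074 cells and 4779405 to 11243740 UMIs per library, and any pair of libraries shared at most 2 cell barcodes. Libraries are named throughout with the 2 Control libraries first (1, then 2) and the 2 hucMSC-Exo libraries after them (1, then 2). Each cell was put into a gate by marker genes, none of which is among the 8 genes. The monocyte gate (Ly6c2, Chil3, Plac8 and others) held 90, 223, 102 and 226 cells, the C1q macrophage gate (C1qa, Mrc1, Apoe and others) 111, 238, 138 and 160, and the osteoclast-like macrophage gate (Cd68, Trem2, Gpnmb, Acp5 and others) 34, 209, 111 and 90. C1qa was found in 92.7% of the cells of its gate and in 6.83% of other cells, Ly6c2 in 72.4% and 8.88%, and Trem2 in 79.5% and 9.13%. Of the other osteoclast-like markers, Cd68 was found in 92.1% of the gate's cells, Ctsk in 29.95% and Dcstamp in 11.7%. In other cells their shares were 25.8%, 4.83% and 0.60%. Per 1000000 UMIs the osteoclast-like gate held 8213 to 19072 of C1q macrophage markers and 1774 to 3116 of its own. The markers also defined the gates, so these shares do not show that the 3 gates are separate. The 3 gates together held 1732 cells, 26.9% of those kept, and 229 of them (13.2%) lay near a boundary between gates. They are ranges of a marker score rather than separate types. When cells were clustered without the 8 genes, 84.6% of the 1732 cells fell into clusters named as one of the 3 gates, but only 29.4% of the C1q macrophage gate, 44.8% of the osteoclast-like gate and 70.7% of the monocyte gate fell into clusters of their own name. The level of a gene is given as CPM, its UMIs per 1000000 UMIs of a library's cells in a gate.

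**Figure D1:**
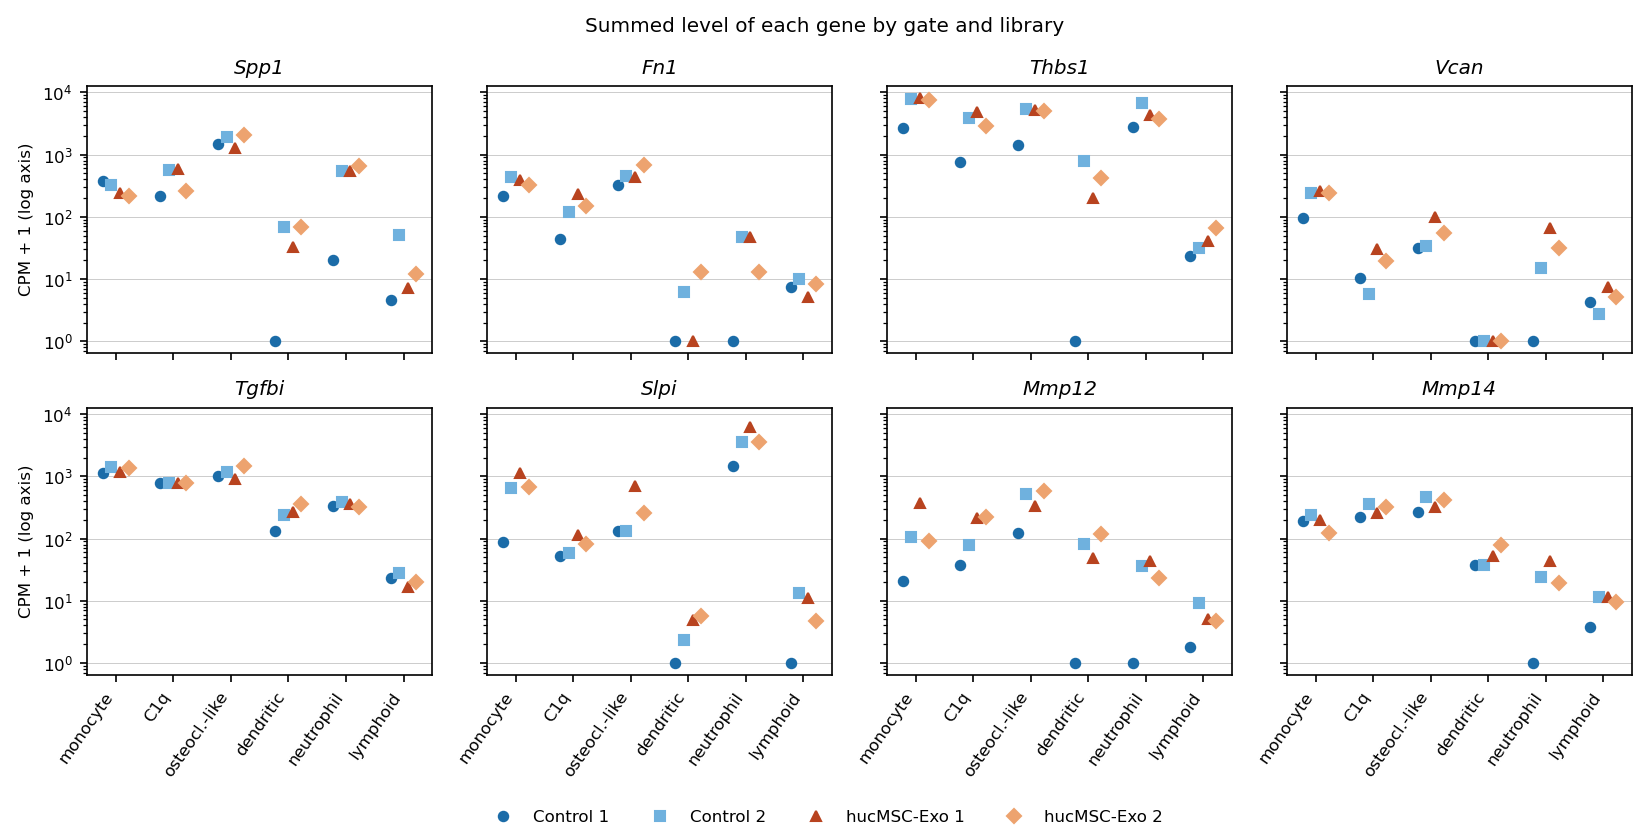
Level of each gene (CPM + 1, log axis) in 6 gates, with 1 point per library, where a value of 1 means that no UMI was found. Spp1 was highest in the osteoclast-like gate, Vcan in the monocyte gate and Slpi in the neutrophil gate of all 4 libraries, and no Vcan UMI was found in the dendritic cell gate.

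Spp1, Fn1, Slpi, Vcan and Mmp12 were higher in the osteoclast-like gate than in the C1q macrophage gate, and Vcan, Slpi, Fn1, Thbs1 and Tgfbi were higher in the monocyte gate than in the C1q macrophage gate. No gene of the list passed as lower in either comparison. The first question was thus where among monocytes and macrophages the matrix genes were expressed, tested with edgeR across 8007 genes with the library as a block. Between the osteoclast-like and C1q macrophage gates 5 of the 8 genes passed the test, all higher, where 2.82% of all genes passed and 0.762% passed as higher and 2.06% as lower. The median log2 fold change of the 8 genes was 1.70, and that of all genes 0.01. Between the monocyte and C1q macrophage gates 5 of 8 passed, all higher, against 17.3% of all genes and 8.51% as higher and 8.79% as lower, with medians of 1.02 and 0.02. Of all genes 681 were higher and 704 lower there, and 534 and 904 with the size factors of DESeq2. Between the monocyte and osteoclast-like gates 4 of 8 passed, 1 higher and 3 lower in the monocyte gate, against 8.19% of all genes, 4.17% as higher and 4.02% as lower, with medians of -0.08 and 0.02. There 334 genes were higher and 322 lower, and 287 and 421 with the size factors of DESeq2. The 3 comparisons share libraries and gates. Since the 8 genes were chosen with earlier results of these data known, their shares and medians beside those of all genes are a description. They are no independent support. Without the library block, the calls of Vcan, Spp1, Slpi and Mmp12 between the osteoclast-like and C1q macrophage gates were lost (edgeR adjusted p = 0.0954, 0.117, 0.157 and 0.367), as was that of Thbs1 between monocyte and C1q macrophage gates (0.244) and those of Mmp14 and Mmp12 between monocyte and osteoclast-like gates (0.0894 and 0.278).

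Spp1, the osteopontin gene, had 1468, 1893, 1256 and 2085 CPM in the osteoclast-like gate. In the C1q macrophage gate it had 213, 564, 577 and 255 CPM, and in the monocyte gate 376, 326, 242 and 211. All 4 osteoclast-like values lay above all 8 values of the other 2 gates, which overlapped each other. The fold was 4.42 over the C1q macrophage gate (log2 fold change 2.14 ± 0.48 SE, edgeR adjusted p = 0.0105), and the monocyte gate was lower than the osteoclast-like gate by a log2 change of -2.42 ± 0.49 (adjusted p = 0.00256). Monocyte and C1q macrophage gates differed by -0.28 ± 0.48, with a range of 2 SE on either side from -1.24 to 0.68 (adjusted p = 0.748). The first of these calls was lost with DESeq2 (adjusted p = 0.0692), without Control 2 (0.067) and without hucMSC-Exo 2 (0.127). The second was lost without hucMSC-Exo 2 (0.0529). Few cells carried most of the Spp1 UMIs: the 10% of osteoclast-like cells with the most held 68.0% to 83.6% of them, and a single cell up to 433.

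Fn1, the fibronectin gene, had 323, 444, 442 and 673 CPM in the osteoclast-like gate and 217, 429, 394 and 319 CPM in the monocyte gate. In the C1q macrophage gate it had 43.8, 117, 236 and 147 CPM. Within each library the C1q macrophage value was the lowest of the 3 gates. Fn1 was 3.72-fold higher in the osteoclast-like gate (log2 1.90 ± 0.31, edgeR adjusted p = 0.000545) and 2.79-fold higher in the monocyte gate (log2 1.48 ± 0.30, adjusted p = 0.00107) than in the C1q macrophage gate. Monocyte and osteoclast-like gates did not differ beyond their spread (log2 -0.41 ± 0.29, 2 SE range -0.999 to 0.17, adjusted p = 0.425).

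Thbs1, which encodes a trimeric glycoprotein that can activate latent TGF-beta, had 2660, 7965, 8070 and 7621 CPM in the monocyte gate. It had 1416, 5328, 5132 and 4987 CPM in the osteoclast-like gate and 759, 3898, 4913 and 2841 CPM in the C1q macrophage gate. Control 1 was the lowest library in all 3 gates, and within each library the order of the gates was the same. Thbs1 was 2.43-fold higher in the monocyte than in the C1q macrophage gate (log2 1.28 ± 0.36, edgeR adjusted p = 0.0147), a call that was lost without hucMSC-Exo 2 (adjusted p = 0.128). The osteoclast-like gate did not pass against the C1q macrophage gate (log2 0.52 ± 0.36, adjusted p = 0.573) or against the monocyte gate (monocyte higher by 0.76 ± 0.36, adjusted p = 0.197). Both passed with clusters in place of gates (2.15, adjusted p = 1.17e-05, and 1.35, 0.00102) and without the filter on low counts (0.0338 and 8.08e-05).

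Tgfbi, whose product binds collagens and integrins, had 1112, 1420, 1181 and 1375 CPM in the monocyte gate, 1018, 1160, 895 and 1451 CPM in the osteoclast-like gate and 793, 777, 767 and 793 CPM in the C1q macrophage gate. The C1q macrophage values spanned a narrow range and lay below all values of the other 2 gates, which overlapped. The monocyte gate was 1.70-fold above the C1q macrophage gate (log2 0.76 ± 0.19, edgeR adjusted p = 0.00562). This call was lost without Control 2 (0.0934) or hucMSC-Exo 2 (0.0607). The osteoclast-like gate was above the C1q macrophage gate by 0.51 ± 0.19 on the log2 scale (adjusted p = 0.168), and passed with a larger margin between gates (0.72, 0.0203). Monocyte and osteoclast-like gates differed by 0.25 ± 0.19 (adjusted p = 0.458), and with clusters by 0.63 (0.0157).

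Vcan, the versican gene, had 96.0, 242, 263 and 236 CPM in the monocyte gate and 30.9, 33.1, 98.2 and 54.8 CPM in the osteoclast-like gate. In the C1q macrophage gate it had 9.57, 4.82, 29.8 and 18.1 CPM, from 7, 7, 25 and 17 UMIs. The order of the 3 gates was the same in each library. Vcan was 16.5-fold higher in the monocyte than in the C1q macrophage gate (log2 4.05 ± 0.30, edgeR adjusted p = 3.48e-09), and 4.54-fold higher than in the osteoclast-like gate (log2 2.18 ± 0.26, adjusted p = 9.57e-06). The osteoclast-like gate was 3.64-fold above the C1q macrophage gate (log2 1.86 ± 0.34, adjusted p = 0.00207), and this call was lost when clusters took the place of gates (log2 0.56, adjusted p = 0.778).

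Slpi, the protease inhibitor gene, had 88.2, 650, 1142 and 679 CPM in the monocyte gate. It had 131, 130, 685 and 256 CPM in the osteoclast-like gate and 52.0, 57.1, 112 and 80.0 CPM in the C1q macrophage gate. The C1q macrophage value was the lowest of the 3 in each library, while Control 1 alone had more Slpi in the osteoclast-like than in the monocyte gate. Slpi was 7.57-fold higher in the monocyte than in the C1q macrophage gate (log2 2.92 ± 0.40, edgeR adjusted p = 9.87e-06) and 3.49-fold higher in the osteoclast-like than in the C1q macrophage gate (log2 1.80 ± 0.40, adjusted p = 0.00924). The second call was lost without hucMSC-Exo 1 (0.213) or hucMSC-Exo 2 (0.0932). Between monocyte and osteoclast-like gates the difference of 1.12 ± 0.37 did not pass (adjusted p = 0.0573). It passed with clusters (2.23, 0.00126), a larger margin (0.0245), no filter (4.38e-07), no marked doublets (0.0355) and without Control 1 (0.00209). The 8 neutrophil markers summed to 224 to 755 CPM in the monocyte gate, 103 to 568 in the C1q macrophage gate and 227 to 539 in the osteoclast-like gate, against 57598 to 116296 in the neutrophil gate, and their part in the Slpi values was not tested.

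Mmp12, the macrophage elastase gene, had 120, 510, 331 and 580 CPM in the osteoclast-like gate, 36.9, 77.7, 213 and 221 CPM in the C1q macrophage gate and 20.1, 103, 376 and 91.2 CPM in the monocyte gate. The osteoclast-like gate had the most Mmp12 in 3 libraries, and in hucMSC-Exo 1 the monocyte gate did. The fold over the C1q macrophage gate was 3.04 (log2 1.60 ± 0.39, edgeR adjusted p = 0.0176). The monocyte gate was below the osteoclast-like gate (log2 -1.55 ± 0.39, adjusted p = 0.0143). Both calls were lost without the cells marked as doublets (adjusted p = 0.113 and 0.0518), without Control 2 (0.24 and 0.147) and without hucMSC-Exo 2 (0.0839 and 0.174). With clusters in place of gates the second was also lost (log2 -0.08, adjusted p = 0.948). Monocyte and C1q macrophage gates differed by 0.06 ± 0.40 (adjusted p = 0.952), and with clusters by 2.14 (0.00466). Of the Mmp12 UMIs of the osteoclast-like gate 83.6% to 88.6% were in the 10% of its cells with the most.

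Mmp14, the membrane-type metalloproteinase gene, had 265, 461, 322 and 421 CPM in the osteoclast-like gate, 223, 352, 256 and 323 CPM in the C1q macrophage gate and 192, 240, 199 and 120 CPM in the monocyte gate. This order held within each library. The monocyte gate was lower than the osteoclast-like gate (log2 -0.89 ± 0.23, edgeR adjusted p = 0.0182), which was lost without Control 2 (0.156) or hucMSC-Exo 2 (0.204), and with clusters in place of gates (0.127). Between clusters of monocytes and C1q macrophages Mmp14 turned, higher in monocytes by 1.07 (adjusted p = 0.000769), where the gates gave -0.53 ± 0.23 (adjusted p = 0.113, and 0.028 without Control 1). The osteoclast-like and C1q macrophage gates differed by 0.35 ± 0.23, with a 2 SE range from -0.10 to 0.81 (adjusted p = 0.539), and with clusters by 1.53 (5.79e-05). Mmp14 was spread over many cells, and the 10% of osteoclast-like cells with the most held 28.6% to 34.1% of its UMIs.

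**Figure D2:**
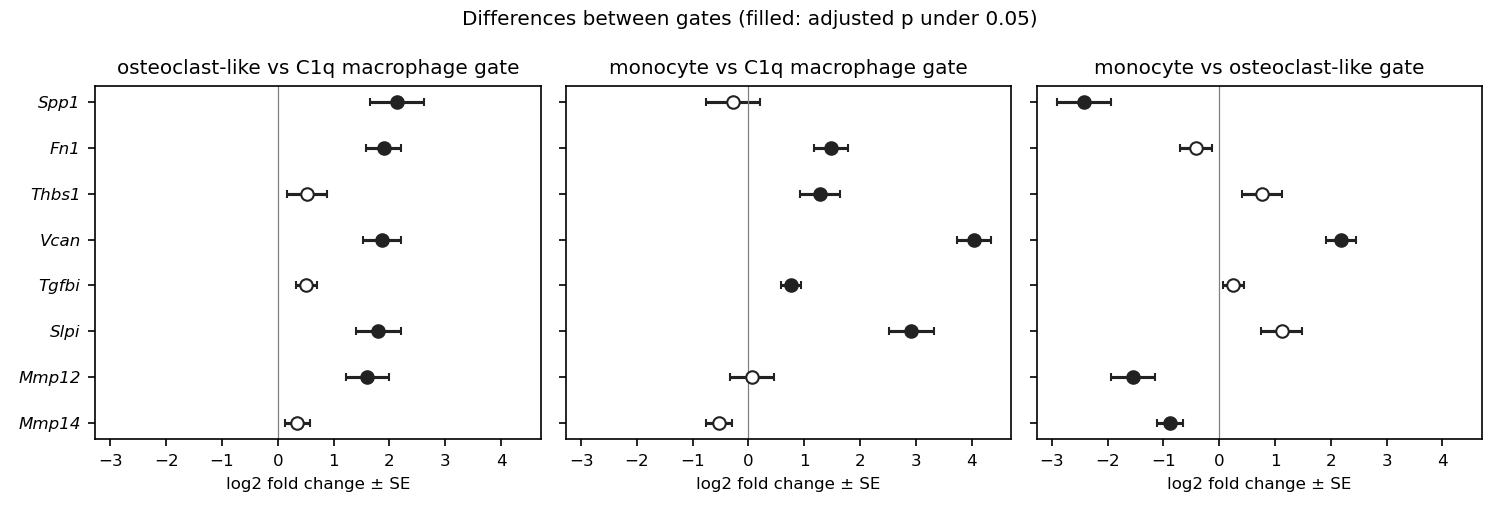
Log2 fold change of each gene between pairs of gates, fitted over 4 libraries with the library as a block, with bars of 1 SE; filled points passed an adjusted p of 0.05. The widest difference was that of Vcan between monocyte and C1q macrophage gates (4.05), and Spp1, Mmp12 and Mmp14 were lower in monocytes than in osteoclast-like cells.

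The upper limit of 3000 detected genes, taken from the study, removed 34, 152, 51 and 12 cells that would have entered the osteoclast-like gate. In these removed cells Spp1 stood at 614, 592, 494 and 1116 CPM and Thbs1 at 238, 1344, 351 and 952 CPM, below the kept cells of the same gate and library. Mmp14 stood at 413, 579, 541 and 394 CPM, above the kept cells in 3 of 4 libraries. With these cells included, the difference of Spp1 between osteoclast-like and C1q macrophage gates was 1.47 (edgeR adjusted p = 0.0601) and that of Mmp12 0.57 (0.426), so that neither passed. Mmp12 between monocyte and osteoclast-like gates was then at -0.61 (0.32), while Mmp14 passed between osteoclast-like and C1q macrophage gates at 0.59 (0.0398). Between monocyte and osteoclast-like gates Thbs1 (1.77, 0.000618), Tgfbi (0.79, 0.00335) and Slpi (1.41, 0.0277) then passed as well.

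The other cell classes were compared with the mean of the 3 monocyte and macrophage gates on the log scale, after TMM scaling. The fitted folds therefore need not equal ratios of the CPM values. All 8 genes were higher than in the dendritic cell gate and all 8 higher than in the lymphoid gate, which holds T cells, NK cells and innate lymphoid cells. These tests passed for 34.1% of all genes (18.4% as higher and 15.7% as lower) and for 66.9% (31.2% and 35.6%). The choice of the 8 genes with earlier results known limits this comparison with all genes as well. Vcan had no UMI in the 153 dendritic cells, which allows a share of up to 1.96% of cells with a UMI and a level of 1.91 CPM over the 4 libraries. For these gates and cells the monocyte and macrophage mean was at least 50.2-fold higher. Vcan was found in a mean of 2.5% of the dendritic cells defined by clusters and in 1.13% with no upper limit on genes, and the log2 differences were then 1.78 (edgeR adjusted p = 0.0347) and 3.34 (5.18e-05). Tgfbi and Mmp12 differed least from dendritic cells. Tgfbi had 132, 236, 267 and 363 CPM there, a 3.8-fold difference (log2 1.93 ± 0.18, edgeR adjusted p = 3.48e-09), and Mmp12 had 0, 80.5, 47.1 and 119 CPM, a 2.57-fold difference (log2 1.36 ± 0.39, adjusted p = 0.00829). The Mmp12 call was lost when clusters took the place of gates (log2 0.05, adjusted p = 0.944) without marked doublets (0.0504) and without the library block (0.103). Against lymphoid cells the folds ran from 16.1 for Vcan to 116 for Thbs1, which had 22.8, 30.1, 40.1 and 64.1 CPM in the lymphoid gate.

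Against neutrophils the genes divided. Fn1, Mmp12, Mmp14 and Tgfbi were higher in the monocyte and macrophage gates, Slpi was higher in neutrophils, and Spp1, Thbs1 and Vcan did not pass, where 54.8% of all genes passed (27.7% as higher and 27.1% as lower). Slpi had 1464, 3539, 6199 and 3552 CPM in the neutrophil gate, above each monocyte and macrophage value, with a log2 difference of -4.29 ± 0.27 (edgeR adjusted p = 1.86e-13). Basophils, which are rare granulocytes, also had 1066, 2790, 1137 and 1435 CPM of Slpi, from only 2, 59, 21 and 20 cells and without a test. Mmp14 was 9.67-fold and Fn1 7.87-fold higher in the monocyte and macrophage gates than in neutrophils (log2 3.27 ± 0.29, adjusted p = 3.64e-10, and 2.98 ± 0.36, adjusted p = 1.00e-07). Mmp12 was 5.64-fold (log2 2.5 ± 0.45, adjusted p = 3.17e-05) and Tgfbi 2.39-fold higher (log2 1.26 ± 0.17, adjusted p = 7.35e-07). Neutrophil Thbs1 stood at 2773, 6850, 4384 and 3707 CPM, within the range of the monocyte and macrophage values (difference -0.41 ± 0.29, 2 SE range -0.98 to 0.17, adjusted p = 0.237). Vcan in neutrophils was at 0, 14.1, 64.2 and 30.2 CPM (difference 0.66 ± 0.30, adjusted p = 0.0667). In plain CPM its mean over the 3 gates was 93.1, against 27.1 in neutrophils, and was higher in all 4 libraries. By gate the Vcan means were 209 CPM in the monocyte, 54.2 in the osteoclast-like and 15.6 in the C1q macrophage gate. With clusters in place of gates Thbs1 passed as lower than in neutrophils (-1.31, 4.64e-06). Vcan passed as higher without marked doublets (1.18, 0.00605) and without the filter on low counts (0.82, 0.00668).

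Spp1 in neutrophils was at 19.3, 538, 539 and 646 CPM, so that Control 1, with 2 UMIs in 51 neutrophils, stood far below the other 3 libraries. The fitted difference from the monocyte and macrophage mean was 0.07 ± 0.40 on the log2 scale (2 SE range -0.74 to 0.87, edgeR adjusted p = 0.902), and -0.41 without Control 1 (adjusted p = 0.246). The plain CPM differed more: the mean over the 3 gates was 789 CPM, against 436 in neutrophils, and was higher in all 4 libraries. By gate the means were 1676 CPM in the osteoclast-like, 402 in the C1q macrophage and 289 in the monocyte gate. Only the osteoclast-like mean was thus above that of neutrophils. The fit averages the gates on the log scale after TMM scaling, and the reason for the gap was not tested. Of the 1069 neutrophils 96 held 5 or more Spp1 UMIs, and these carried 88.3% of the Spp1 UMIs of the gate. They were 0, 34, 8 and 54 cells of the 4 libraries. Being chosen for their Spp1 they can only be described: their median depth was 2152 UMIs, against 2121 in the 871 neutrophils with no Spp1 UMI. Both sets had a median of 1 of the 23 monocyte and macrophage markers, S100a8 was found in 99.0% and 96.9%, and Cd68 in 37.5% and 28.1%. Of the 96 cells 1 (1.04%) was marked as a doublet, against 4.13% of the neutrophils without Spp1. Of the 102 neutrophils with 1 to 4 Spp1 UMIs 7 (6.86%) were marked.

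Because gates differ in depth, shares of positive cells were also compared after drawing 1000 UMIs from each cell. At full depth the median cell had 6246.5 to 7730 UMIs in the monocyte gate, 5768.5 to 7219 in the C1q macrophage gate, 6215.5 to 9155 in the osteoclast-like gate, 1906.5 to 2208.5 in the neutrophil gate and 3461 to 4443.5 in the lymphoid gate. Spp1 was found in 41.2%, 57.4%, 53.2% and 53.3% of osteoclast-like cells at full depth, and in 27.3%, 38.4%, 33.9% and 35.2% at equal depth. In lymphoid cells, taken without a test as a level for free RNA, the shares were 1.09%, 3.65%, 1.16% and 2.88%, and 0.36%, 1.52%, 0.39% and 0.75% at equal depth. Keratinocyte markers summed to 473 to 971 CPM in the lymphoid gate and to 1250 to 2147 CPM in the neutrophil gate. The lymphoid level may thus be too low for neutrophils, which was not tested. Neutrophils were positive for Spp1 in 3.92%, 17.4%, 21.2% and 20.1% of cells, and in 0%, 14.2%, 13.9% and 16% at equal depth, at equal depth above the lymphoid share in 3 of the 4 libraries. The 0% of Control 1 came from 48 cells, which allows a share of up to 6.25% of cells with a UMI at that depth.

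Fn1 at equal depth was found in 12.6% to 27.0% of monocytes, 21.2% to 27.5% of osteoclast-like cells and 3.06% to 11% of C1q macrophages, against 0.39% to 1.14% of lymphoid cells. Thbs1 was found in 55.2% to 78.0% of monocytes and 62.5% to 81.2% of neutrophils, against 0.36% to 2.52% of lymphoid cells. Tgfbi was found in 56.7% to 60.9% of monocytes, in 53.7% to 60.6% of osteoclast-like cells and in 1.14% to 1.64% of lymphoid cells. Slpi was found in 58.3% to 77.2% of neutrophils but in only 6.90% to 27.0% of monocytes. Mmp12 reached 11% to 15.9% of osteoclast-like cells and Mmp14 24.8% to 36.0%, with lymphoid shares of 0% to 0.38% and 0.18% to 1.26%. Vcan was found in 8.05% to 16.1% of monocytes and in 0.92% to 1.60% of C1q macrophages, against 0.13% to 0.65% of lymphoid cells. Each of the 24 mean shares of a gene in a monocyte or macrophage gate was above that gene's lymphoid mean.

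**Figure D3:**
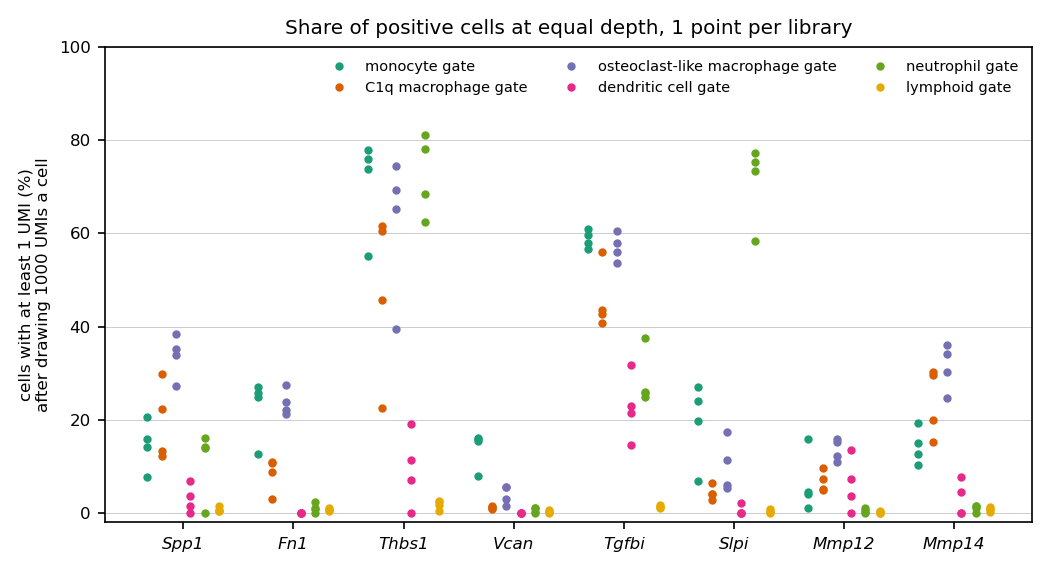
Share of cells with at least 1 UMI of each gene (%) after 1000 UMIs were drawn from each cell, by gate, with 1 point per library. Thbs1 reached 55.2% to 78.0% of monocytes and Slpi 58.3% to 77.2% of neutrophils, while lymphoid shares of all 8 genes stayed at or below 2.52%.

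Within single cells the genes were only partly found together. At equal depth a mean of 2.03 to 2.53 of the 8 genes was found per osteoclast-like cell, 1.76 to 2.53 per monocyte and 1.04 to 1.86 per C1q macrophage. Among C1q macrophages Fn1 was found in 16.7%, 15.4%, 10.7% and 35.0% of the Spp1-positive cells and in 1.16%, 9.15%, 8.25% and 6.98% of the Spp1-negative cells. The share beside Spp1 was the higher in each library, but few cells lie behind it. Of 98, 218, 125 and 149 C1q macrophages at that depth 12.2%, 29.8%, 22.4% and 13.4% were Spp1-positive. Only 2.04%, 4.59%, 2.40% and 4.70% held both genes. Among osteoclast-like cells of Control 2, hucMSC-Exo 1 and hucMSC-Exo 2 the shares were 33.3%, 32.4% and 35.5% beside Spp1 and 15.2%, 25.0% and 17.5% without it. Control 1 had too few Spp1-positive cells for a share. In monocytes the order was not the same in all libraries, with 11.1%, 25.8%, 31.2% and 41.2% beside Spp1 and 13%, 25.8%, 26.2% and 23.5% without it. Cells of 1 library share their source and no test was run on them.

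Over the 24 sums of 6 gates and 4 libraries, the genes whose log2(CPM + 1) followed each member most closely were listed among 8640 genes. The points share libraries and depth, and the coefficients describe these sums only. Spp1 was followed by Lhfpl2, Cd93 and Lpin2 (Pearson r 0.91, 0.90 and 0.89), Fn1 by Pdpn, Gpnmb and Apoc2 (0.93, 0.93 and 0.93), and Thbs1 by Lpin2, Clec4e and Pgd (0.96, 0.95 and 0.94). Gpnmb was 1 of the markers of the osteoclast-like gate. Vcan was followed by Plcb1, Fn1 and Apoc2 (0.90, 0.86 and 0.86), Tgfbi by Ifi207, Ccl9 and Mpeg1 (0.96 each), and Slpi by Sgms2, Hp and Ubap1 (0.93, 0.92 and 0.92). Mmp12 was followed by Mmp19, another metalloproteinase, and by Abcc1 and Slc22a4 (0.96, 0.91 and 0.90), and Mmp14 by Myof, Lrp1 and Anxa4 (0.98, 0.97 and 0.96). Among the 8 genes themselves the closest pair was Thbs1 and Spp1 (0.86) and the loosest Mmp14 and Slpi (0.20).

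A list of 85 further genes of the same pathways, receptors, other matrix proteins, other proteases, inhibitors and inducers, gives the setting. Of these 64 were tested between gates. Between the osteoclast-like and C1q macrophage gates 2 of the 64 were higher and 3 lower, where 0.762% and 2.06% of all genes were. These were the neutrophil collagenase gene Mmp8 (log2 3.15 ± 0.74, edgeR adjusted p = 0.0169) and the heparan sulfate receptor gene Sdc1 (1.35 ± 0.25), against Adam19 (-1.42 ± 0.31), the TGF-beta receptor gene Tgfbr2 (-1.21 ± 0.24) and the plasminogen activator gene Plau (-1.01 ± 0.27). Between the monocyte and C1q macrophage gates 10 were higher and 12 lower, where 8.51% and 8.79% of all genes were. The inhibitor genes Wfdc21 (3.38 ± 0.87) and Timp1 (1.49 ± 0.36) were higher, as were the matrix glycoprotein gene Emilin2 (1.61 ± 0.24), the osteopontin receptor gene Cd44 (0.70 ± 0.18) and the urokinase receptor gene Plaur (1.03 ± 0.20). The inhibitor gene Timp2 (-2.43 ± 0.26) and the integrin genes Itga9 (-1.91 ± 0.38) and Itgb5 (-1.28 ± 0.22) were lower in monocytes. Between the monocyte and osteoclast-like gates 5 were higher and 12 lower, where 4.17% and 4.02% of all genes were, with Mmp9 (-4.55 ± 0.85) and Mmp13 (-1.77 ± 0.47), which cut gelatin and collagen, lower in monocytes.

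Of the same 64 genes 32 were higher and 9 lower in the monocyte and macrophage gates than in dendritic cells, where 18.4% and 15.7% of all genes were. Against lymphoid cells 38 were higher and 10 lower, where 31.2% and 35.6% of all genes were. Against neutrophils 21 were higher and 29 lower, where 27.7% and 27.1% of all genes were. Against neutrophils, where Slpi was also lower, the inhibitor gene Wfdc21 (-7.55 ± 0.26) and the proteinase genes Mmp9 (-4.89 ± 0.45) and Mmp8 (-3.91 ± 0.33) were lower. Mmp19 (3.28 ± 0.26), Ecm1 (3.63 ± 0.31) and Itgb5 (3.27 ± 0.35) were higher.

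The study asked whether the exosomes change these cells, and the hucMSC-Exo and Control libraries were compared within each gate. None of the 8 genes passed the test in any of the 3 gates. The test called 0 of 6662 genes (0%) in the monocyte gate, 0 of 6675 (0%) in the C1q macrophage gate and 0 of 5927 (0%) in the osteoclast-like gate. At an unadjusted p under 0.05 edgeR counted 120, 129 and 50 genes, and DESeq2 called 1, 0 and 0. Data were also simulated with these libraries' sizes but with the same set spread for every gene, not the observed spread. There a log2 change of 2 was recovered for 59.0%, 33.0% and 46.5% of changed genes. A log2 change of 1 was recovered for 0%, 0.5% and 3.5%. At that set spread the smaller changes were mostly not detected with 2 libraries a group. The limits at the observed spread were not simulated. The p-values measure the spread between these 4 libraries, 1 per mouse. Control 1 had the lowest value of the 4 libraries in 17 of the 24 pairs of a gene and a gate, and the highest in 2.

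In the C1q macrophage gate the 8 genes had a median log2 difference of 0.83, against -0.00 over all genes. Mmp12, Fn1, Vcan and Slpi had both hucMSC-Exo values above both Control values, as did 11.1% of all genes tested in this gate, and no member had both below, as did 13.1% of all genes. Mmp12, given above as 36.9 and 77.7 CPM in Control and 213 and 221 CPM in hucMSC-Exo, had means of 57.3 ± 28.9 (SD, n = 2) and 217 ± 5.61. Its log2 difference was 1.92 ± 0.37 (edgeR adjusted p = 0.9998), and it rested on 27, 113, 179 and 207 UMIs in 9.91%, 9.24%, 16.7% and 9.38% of the cells. With 1 library left out the difference was 2.53 without Control 2, 1.99 without hucMSC-Exo 2, 1.87 without hucMSC-Exo 1 and 1.54 without Control 1. A group of 1 library has no spread of its own, so these fits give no test. Mmp12 passed without the filter on low counts (edgeR adjusted p = 0.002) and with the crossed replicate block, added after seeing the data (0.00953). It did not pass with clusters in place of gates, where the difference was 0.33 (0.999), with a larger margin between gates (1.16, 0.9998), with no upper limit on genes (1.61, 0.998), without marked doublets (2.21, 0.304) or with DESeq2 (1.93, 0.108). Fn1 had a difference of 1.27 ± 0.45 (adjusted p = 0.9998), which ran from 0.79 to 2.49 over all alternatives. Vcan differed by 1.86 ± 0.56 and Slpi by 0.84 ± 0.33 (adjusted p = 0.9998 for both). Few cells carried these genes. Per library the 10% of C1q macrophages with the most held 73.5% to 100% of the Fn1 UMIs and 89.4% to 100% of the Slpi UMIs. For Mmp12 it was 89.9% to 100%, and for Vcan 100%. With clusters in place of gates Slpi turned to -1.73 (adjusted p = 0.896).

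Thbs1 in the C1q macrophage gate differed by 0.81 ± 0.59 (edgeR adjusted p = 0.9998). Over all alternatives its difference ran from -0.62 with clusters to 2.36 without Control 2. Spp1 (0.16 ± 0.50), Mmp14 (0.03 ± 0.33) and Tgfbi (0.01 ± 0.29) showed no difference beyond the spread between libraries. The 2 Control libraries differed from each other in Spp1 by more than the group means did, with 213 and 564 CPM.

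In the monocyte gate the median difference was 0.45, against 0.00 over all genes. Spp1 was at 376 and 326 CPM in Control and 242 and 211 CPM in hucMSC-Exo, and both hucMSC-Exo values lay below both Control values, as for 21% of all genes. Its log2 difference was -0.52 ± 0.25 (edgeR adjusted p = 0.9998). Slpi, with 88.2 and 650 against 1142 and 679 CPM, lay above in both hucMSC-Exo libraries, as did 8.84% of all genes (log2 1.41 ± 0.80, adjusted p = 0.9998). The other 6 genes overlapped between the groups, among them Mmp12 (1.96 ± 0.87) and Thbs1 (0.68 ± 0.46). Monocyte Slpi passed without Control 2 (3.51, adjusted p = 0.0387), and monocyte Slpi and Mmp12 passed without the filter on low counts (0.00135 and 4.62e-05).

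In the osteoclast-like gate the median difference was 0.53, against 0.01 over all genes. Slpi was at 131 and 130 CPM in Control and 685 and 256 CPM in hucMSC-Exo (log2 1.90 ± 0.53, edgeR adjusted p = 0.999). It passed without the filter on low counts (1.96, 0.0214). Over all alternatives its difference ran from 0.47 with clusters, where it did not pass, to 2.5 without hucMSC-Exo 2. Vcan was at 30.9 and 33.1 against 98.2 and 54.8 CPM (1.30 ± 0.44, adjusted p = 0.999). Both lay above in both hucMSC-Exo libraries, as did 9.43% of all genes, and no member lay below, as did 12.2%. Spp1 had means of 1681 ± 301 and 1671 ± 586 CPM (SD, n = 2) in Control and hucMSC-Exo, with a difference of -0.02 ± 0.38. The difference of the exosome effect between the osteoclast-like and C1q macrophage gates was itself tested, and it passed for 0 of 8007 genes (0%), with 150 at an unadjusted p under 0.05 and 0 with DESeq2. Of the 85 pathway genes 53 were tested in these comparisons and none passed with edgeR.

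**Figure D4:**
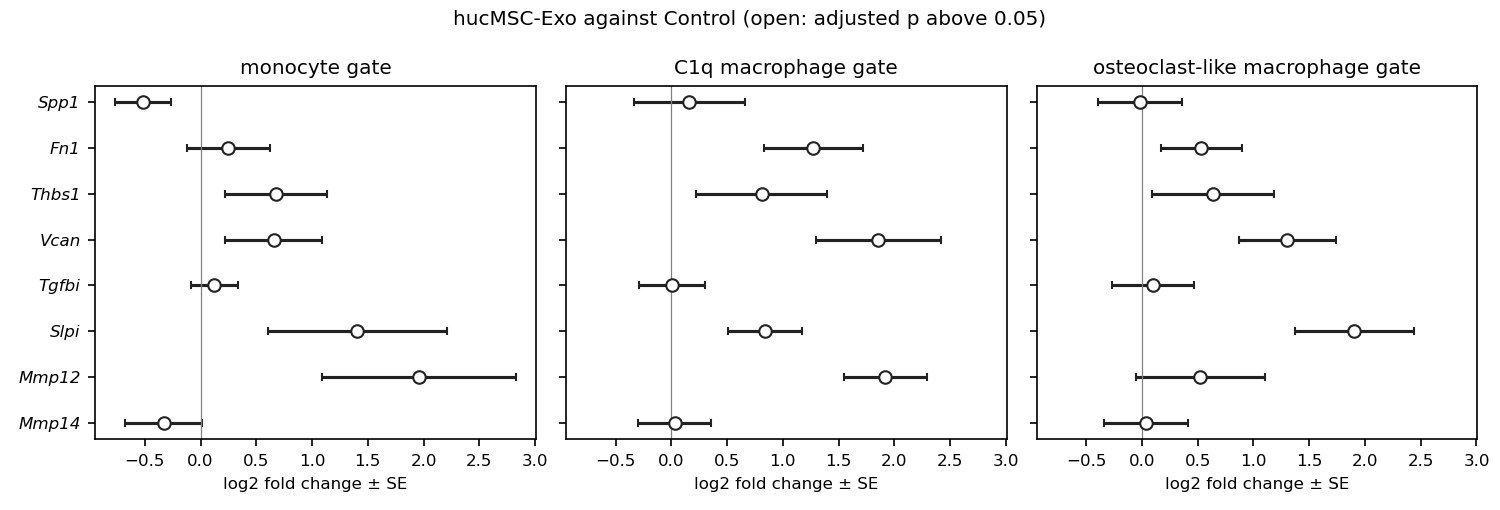
Log2 fold change of hucMSC-Exo over Control for each gene in 3 gates, with bars of 1 SE over 2 libraries a group; no point passed an adjusted p of 0.05. Mmp12 and Vcan stood farthest to the right in the C1q macrophage gate (1.92 and 1.86), and Spp1 lay near 0 in the osteoclast-like gate.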

How the data were processed

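The authors sequenced single cells of periwound skin from 4 mice (10x Genomics 3′ libraries) and deposited UMI counts per gene and cell, made with Cell Ranger 6.1.2 on mm10 and not normalized. The study's limits were applied to cells, 200 to 3000 genes and no more than 10% mitochondrial UMIs. Doublets were marked with Scrublet (the top 10% per library) and kept, except in an alternative. A cell entered a class by its share of detected markers, with at least 2 found, and monocytes and macrophages were then divided by standardized scores over their marker lists. UMIs were summed per gate and library, for gates with at least 10 cells. The sums were tested with edgeR 4.0.16 (quasi-likelihood, TMM, filterByExpr, Benjamini-Hochberg over all genes, threshold 0.05), with DESeq2 1.42.0 as an alternative. Gate comparisons had the library as a block. Clusters (Leiden, resolution 1, 30 components, scanpy 1.11.5) left out the 8 genes and the pathway list. The tests were tried on simulated counts. The genes, lists and markers were chosen with earlier results of these data known. Named were the 8 genes, the 3 genes most like each, and at most 3 called pathway genes per role and direction in a gate comparison. A range of 2 SE and floors of 3 counts cover the fit and counting error only. Same-numbered libraries did not deviate together (correlations -0.13, -0.20 and -0.15).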

Additional observations from a re-analysis of the deposited data

How the results depend on the processing

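With 2 libraries a group, when a library was left out the lone library of its group was taken to vary like the others. Between hucMSC-Exo and Control, where the count of called genes was 0 in each gate, leaving out 1 library gave 0 to 13 genes in the monocyte gate, 9 to 55 in the C1q macrophage gate and 0 to 10 in the osteoclast-like gate, highest without Control 2 in all 3. Without the filter on low counts the counts were 45, 12 and 20, DESeq2 called 1 gene in the monocyte gate, and the fit with the replicate number as a block called 0 in each gate. The deviations of same-numbered libraries were weakly and negatively related (correlations -0.13, -0.20 and -0.15), and the crossed pairing, added after seeing the data, called 1, 6 and 8 genes. For the difference of the effect between gates 14 genes passed without the filter.

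Leaving out 1 library gave 48 to 299 called genes between osteoclast-like and C1q macrophage gates, 478 to 1589 between monocyte and C1q macrophage gates and 107 to 874 between monocyte and osteoclast-like gates, lowest without Control 2 and highest without Control 1 in all 3. Against dendritic cells it gave 1719 to 2665, against neutrophils 3248 to 4419 and against lymphoid cells 4361 to 5396. Between osteoclast-like and C1q macrophage gates clusters gave 1066 genes, no upper limit on genes 1581, a larger margin between gates 519, no filter 456 and no library block 94. Between monocyte and C1q macrophage gates clusters gave 2248 and no block 861. Between monocyte and osteoclast-like gates clusters gave 1258, no upper limit 2806 and no block 303.

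Some log2 differences changed sign. With clusters, the exosome differences in C1q macrophages were -0.44 for Mmp14, -1.73 for Slpi, -0.63 for Spp1, -0.23 for Tgfbi and -0.62 for Thbs1, and with a larger margin -0.051 for Slpi. In the osteoclast-like gate Mmp12 was at -0.055 with a larger margin, and Mmp14 at -0.030 with no upper limit and -0.014 without marked doublets. There Tgfbi was at -0.31 with clusters, and Spp1 at 0.10 with clusters, 0.51 with no upper limit, 0.037 without doublets, 0.32 with a larger margin and 0.022 with no filter. Between osteoclast-like and C1q macrophage gates Tgfbi was at -0.018 and Thbs1 at -0.42 with no upper limit. Between monocyte and C1q macrophage gates Mmp12 was at -0.044 with no upper limit, -0.086 without doublets, -0.040 with the size factors of DESeq2 and -0.11 with DESeq2, and clusters gave 1.07 for Mmp14 and 0.99 for Spp1. Fn1 between monocyte and osteoclast-like gates was at 0.33 with clusters and 0.41 with no upper limit. Against neutrophils Spp1 was at -0.056 with clusters, -0.016 without doublets and -0.072 with no block, and Vcan at -0.25 with clusters.

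With 1 library left out, exosome differences ran from -0.16 to 0.86 for Fn1, -0.79 to 0.038 for Mmp14 and -0.049 to 0.34 for Tgfbi in monocytes. In C1q macrophages they ran from -0.22 to 0.36 for Mmp14, -0.66 to 0.98 for Spp1 and -0.048 to 0.082 for Tgfbi. In osteoclast-like cells they ran from -0.11 to 1.84 for Mmp12, -0.24 to 0.42 for Mmp14, -0.32 to 0.26 for Spp1 and -0.18 to 0.36 for Tgfbi. Between monocyte and C1q macrophage gates Mmp12 ran from -0.54 to 0.47 and Spp1 from -0.78 to 0.11, and Spp1 against neutrophils from -0.41 to 0.55. The cause was not tested. For the 8 genes between gates, with 1 library left out 172 values kept direction and call, 14 lost the call, 2 gained it and 4 changed sign. Under the other alternatives 332 kept both, 19 lost the call, 19 gained it and 14 changed sign. These counts pool the wide differences from lymphoid and dendritic cells with those among the 3 gates. Between osteoclast-like and C1q macrophage gates Spp1 and Mmp12 each lost their call in 5 of 12 alternatives. Few cells in Control 1 and 2 libraries a group limit what can be seen between treatments.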
